A study of Homo sapiens with 8 samples.

Results

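The HOXB cluster holds 10 homeobox genes in a row on chromosome 17, and this account follows the Polycomb mark H3K27me3 over those genes and the DNA around them. The region, chr17:46580001-46830000 (GRCh37, 250 kb), was set by position and not by any measured value. It holds the 10 members HOXB1 to HOXB9 and HOXB13 with their starts given to the nearest kb. In all, 55 of the 467243 peaks in the deposited lists touch the region. Of these, 25 belong to the library AC220 1, 20 to DMSO 1, 7 to AC220 2 and 3 to DMSO 2.

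The cells are MOLM14, an established human acute myeloid leukaemia line with an internal tandem duplication in the receptor tyrosine kinase FLT3. They were exposed for 24 h to AC220 (quizartinib), an inhibitor of that kinase, or to DMSO, its solvent, and Drosophila S2 cells were added to every sample ahead of lysis. Of 8 samples, 4 are H3K27me3 immunoprecipitations, 2 for each treatment (AC220 1 and 2, DMSO 1 and 2), all from cells fixed with paraformaldehyde, and 4 are inputs that were not analysed here. The series asks how blocking FLT3 changes the mark that the Polycomb complex PRC2 writes.

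HOX genes encode transcription factors that give cells their position along the body axis, and their order on the chromosome follows the order in which they are used from head to tail. All HOXB genes are read in the same direction, with HOXB1 at the head end and HOXB13 at the tail end of the cluster. On chromosome 17 HOXB1 has the lowest coordinate and HOXB13 the highest, and above and below are used in that sense. Where HOX genes are silent, PRC2 lays H3K27me3 over whole stretches of the cluster in place of single promoters, and the clusters are among the classic broad Polycomb domains of mammalian cells. In blood, several HOXB genes are active in stem and progenitor cells and are shut off as the cells mature. A peak list records where the mark rose above the background of its own library. It gives neither the amount of mark nor the activity of a gene, so the cell line could not be checked against marker genes, and cell number, mark per cell and sequencing depth cannot be told apart in it.

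Sequences of the region are printed for those members and neighbours to which the peak data below refer. The start of HOXB1, the head-end gene, lay inside a peak in every library, and of the 10 members 1 was matched in the promoter table used (RefSeq, GRCh38.p14). That promoter, chr17:48530962-48531261 on the minus strand of GRCh38.p14, runs from 250 bases before the start to 50 after it. It is printed 5′ to 3′ along the gene, with capitals on its single match to the site of a PBX and HOX protein pair, known from the mouse Hoxb1 gene. The letters searched, on both strands, were TGAT, any 2 bases, AT and any 2 bases.
HOXB1 promoter: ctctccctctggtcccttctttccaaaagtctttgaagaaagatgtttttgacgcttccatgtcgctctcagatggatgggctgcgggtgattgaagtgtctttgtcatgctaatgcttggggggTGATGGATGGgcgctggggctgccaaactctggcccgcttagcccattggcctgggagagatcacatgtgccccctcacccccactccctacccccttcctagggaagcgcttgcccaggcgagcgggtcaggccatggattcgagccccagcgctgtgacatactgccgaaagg
The match fills bases 126 to 135 of the 300. Of the 35116 promoters in the table, 7.34% hold at least 1 match. The promoter has 11 CG dinucleotides, against a median of 14 over all promoters, and its share of G and C is 58%, against a median of 58.7%.

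The cluster also carries microRNA genes. In the gene order of GRCh38.p14, MIR10A stands between HOXB4 and HOXB5, and MIR196A1 stands between HOXB9 and HOXB13. The places of the microRNA genes on GRCh37 were not determined, so no gap or peak is assigned to either gene. MicroRNAs of these families pair with messengers of HOX genes. Their mature sequences (RefSeq, GRCh38.p14) are given 5′ to 3′ with the seed, bases 2 to 8, in capitals. None of the 4 seeds is shared.
hsa-miR-10a-5p: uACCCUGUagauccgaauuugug
hsa-miR-10a-3p: cAAAUUCGuaucuaggggaaua
hsa-miR-196a-5p: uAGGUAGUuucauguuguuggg
hsa-miR-196a-1-3p: cAACAACAuuaaaccacccga

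The HOXB region was among the most densely marked stretches of the genome in all 4 libraries. Peaks covered 79.7% of it in AC220 1 and 83.8% in DMSO 1. In the libraries numbered 2, they covered 96.2% in AC220 2 and 98.3% in DMSO 2. Over chromosomes 1 to 22 and X the covered share was 6.32% in AC220 1, 7.63% in DMSO 1, 16.3% in AC220 2 and 19.4% in DMSO 2. The libraries numbered 2 thus stand apart from those numbered 1 in how much they cover, and values are given for each number. Among 12136 windows of 250 kb laid end to end, 1 window in AC220 1, 4 in DMSO 1, 2 in AC220 2 and 4 in DMSO 2 were covered as much as the region or more. The median window was 1.24% covered in AC220 1, 1.69% in DMSO 1, 7.11% in AC220 2 and 9.88% in DMSO 2.

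**Figure D1:**
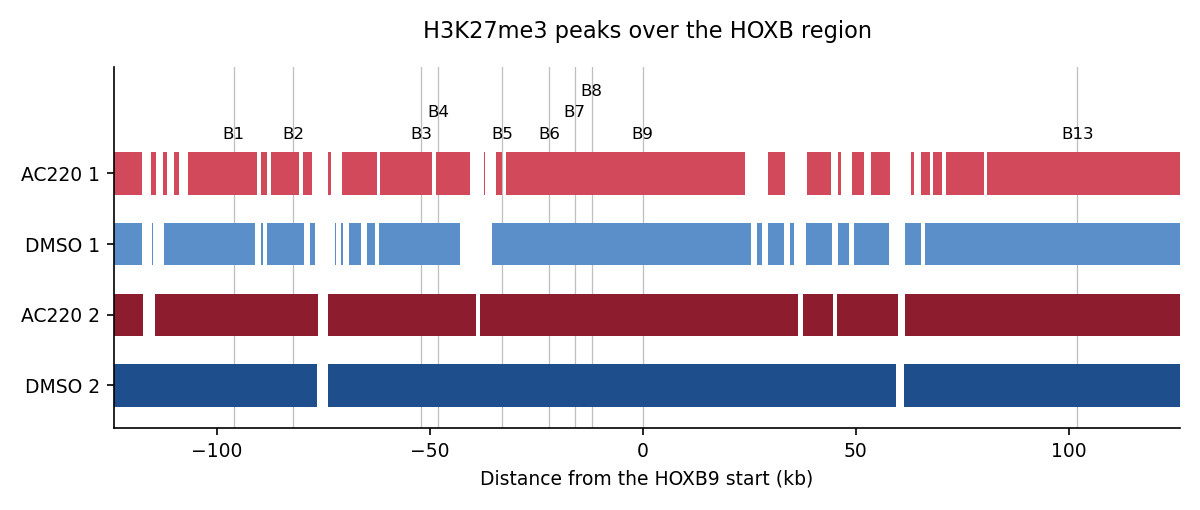
Deposited H3K27me3 peaks (bars) in each library against distance from the HOXB9 start in kb, clipped to the 250 kb region. Grey lines mark the gene starts B1 to B13. The 2 long blocks around HOXB6 to HOXB9 and HOXB13 are unbroken in all 4 libraries, while AC220 1 and DMSO 1 are broken into 25 and 20 peaks and AC220 2 and DMSO 2 into 7 and 3.

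Most of the region was marked under both treatments. In all, 186.5 kb, or 74.6% of the region, lay in peaks of all 4 libraries, against 4.18% of the genome. Of the bases covered in any library, 75.7% were covered in all 4 within the region and 19% over the genome. By steps of 1 kb, 186 of 250 were at least 50% covered in every library, against a background of 4.07% of all 3036292 steps of the genome. The bases covered by both AC220 libraries and by neither DMSO library came to 0, against 0.115% of the genome. Those covered by both DMSO libraries and by neither AC220 library also came to 0, against 0.387% of the genome. Of the bases covered in any library over the genome, these made up 0.522% and 1.76%. Such bases were rare over the genome too, and near-full coverage in number 2 left little room for them in the region. Their absence therefore does not set the region apart. The Jaccard index, shared length over joint length, was 0.842 between AC220 1 and DMSO 1 and 0.974 between AC220 2 and DMSO 2. It was 0.822 between the AC220 libraries and 0.852 between the DMSO libraries. Between DMSO 1 and AC220 2 it was 0.867, and between AC220 1 and DMSO 2 it was 0.811. Libraries of unlike covered share cannot reach a high index, and AC220 2 and DMSO 2 each covered nearly the whole region. The order of these values therefore does not weigh treatment against replicate number.

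The trunk members, HOXB6 to HOXB9, shared the longest unbroken block. The stretch chr17:46671801-46728042, 56.2 kb, was covered without a break in all 4 libraries. It holds the starts of HOXB6 and HOXB7, both active in early blood progenitors, of HOXB8, whose forced expression keeps mouse myeloid progenitors from maturing, and of HOXB9, a gene of the trunk. Each of these 4 starts had 100% of the surrounding 4 kb covered in AC220 1, DMSO 1, AC220 2 and DMSO 2 alike. In AC220 1 the block was a single peak of its own, the 12th widest of 104566, with a fold enrichment of 3.84 over the background of that library. In DMSO 1 it lay in a peak of 60.7 kb (chr17:46668658-46729317), the 10th widest of 104980, with a fold of 4.26. In AC220 2 the peak ran over 74.7 kb (chr17:46665805-46740532) with a fold of 4. In DMSO 2 it ran over 133 kb (chr17:46630139-46763486) with a fold of 4.19, taking in HOXB3, HOXB4 and HOXB5 as well. These folds and ranks are the authors' values or are taken within 1 list, and do not measure a change between lists.

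HOXB13, a gene of the tail end of the body axis and of the prostate, lay in a second unbroken block of its own. The last 45.2 kb of the region, from 46784838 on, were covered in all 4 libraries, and the 4 kb around its start were 100% covered in each. The peak that holds the start measured 58.8 kb in AC220 1 and 63.3 kb in DMSO 1, the 8th and 9th widest of their lists. It measured 79.2 kb in AC220 2 and 80.1 kb in DMSO 2. Its upper end lay at 46843685 in AC220 1, 46833598 in DMSO 1, 46844583 in AC220 2 and 46845241 in DMSO 2. Its lower end differed more, at 46784838 in AC220 1, 46770331 in DMSO 1, 46765426 in AC220 2 and 46765180 in DMSO 2. AC220 1 was not bare between 46770331 and 46784838, where 3 of its shorter peaks lie in whole or in part.

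At the head end, HOXB1, a gene of the hindbrain, had 100% of the 4 kb around its start covered in all 4 libraries. Its peak was 16.2 kb wide in AC220 1, 21.3 kb in DMSO 1, 38.3 kb in AC220 2 and 105 kb in DMSO 2. HOXB2, a hindbrain gene also used in blood progenitors, had 82.5% of its window covered in AC220 1 and 100% in DMSO 1, AC220 2 and DMSO 2. Its start lay in a short, strong peak in the libraries numbered 1. That peak was 6.52 kb wide in AC220 1, with a fold of 3.65 and within the top 0.902% of its list by q. It was 8.66 kb wide in DMSO 1, with a fold of 4.23 and within the top 0.523%. HOXB1 and HOXB2 shared 1 peak in AC220 2 and 1 in DMSO 2.

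HOXB3, HOXB4 and HOXB5 lie in the middle of the cluster. HOXB3 acts in the hindbrain and in blood progenitors, HOXB4 is known for expanding blood stem cells when forced on, and HOXB5 marks long-lived stem cells of the mouse. HOXB3 has several alternative starts, of which 1 position was used here. It had 100% of its window covered in every library. HOXB4 had 75.6% covered in AC220 1 and 100% in DMSO 1, AC220 2 and DMSO 2. HOXB5 had 64.6% covered in AC220 1 and 100% in DMSO 1, AC220 2 and DMSO 2. AC220 1 was therefore the only library in which any of the 10 start windows fell short of full cover, and without it all 10 were at 100%.

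The HOXB5 start was the 1 member start outside a peak, and only in AC220 1. A gap of 0.85 kb (chr17:46670951-46671800) took in the position used for it. That position is given to the nearest kb, so a gap this short may or may not reach the true start. In AC220 1 HOXB4 had a gap of 0.975 kb (chr17:46654589-46655563) beside its start, and HOXB2 one of 0.908 kb (chr17:46623301-46624208). No test was made for single genes, since members of 1 cluster share their peaks and are not replicates of a treatment.

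**Figure D2:**
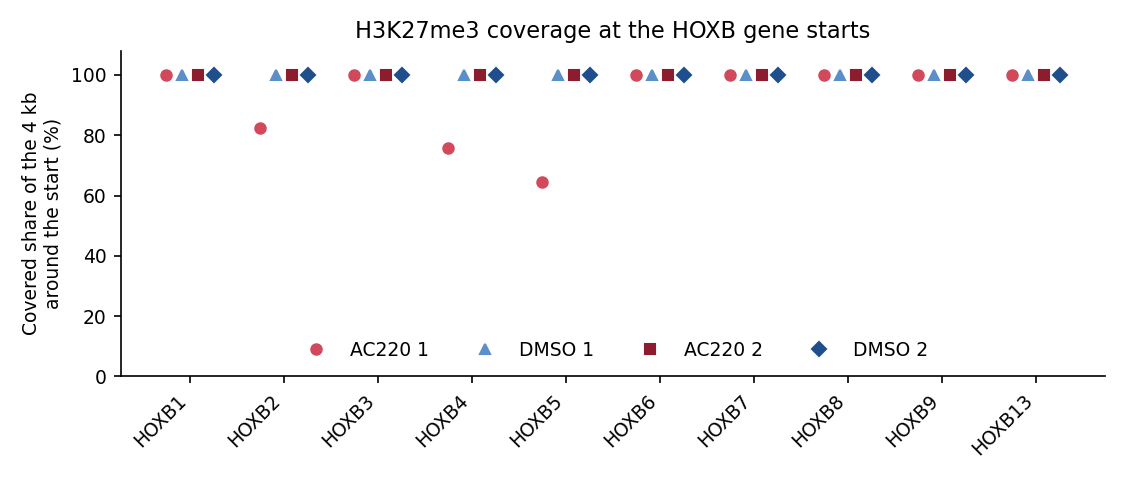
Covered share in percent of the 4 kb centred on each HOXB gene start, with 1 point for each library and no error bars. All points lie at 100% except those of AC220 1 at HOXB2 (82.5%), HOXB4 (75.6%) and HOXB5 (64.6%).

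Taken over the region, AC220 libraries were covered slightly less, by an amount smaller than the spread between libraries. The covered share averaged 88.0% ± 11.7 with AC220 and 91.1% ± 10.3 with DMSO (SD, n = 2 each), a difference of -3.07 points (exact permutation test, two-sided, p = 0.667). With 2 libraries against 2 this test cannot give a p under 0.33, and no label ties the libraries to separate cultures. The p-values therefore set a difference in means against the other assignments of the same 4 libraries, whose spread may be technical. Within number 1 the difference was -4.06 points and within number 2 it was -2.08 points. Without AC220 1 the difference in means turned to 5.18 points, and without DMSO 2 to 4.19 points. The difference was -11.3 points without AC220 2 and -10.3 points without DMSO 1. Each removal leaves the numbers unbalanced between the treatments.

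As a ratio, the region was 4.85% lower with AC220 in number 1 and 2.11% lower in number 2. The rest of chromosome 17 was 4% lower in number 1 and 1.99% lower in number 2, and chromosomes 1 to 22 and X together were 17.2% lower in number 1 and 15.9% lower in number 2. The region thus stood close to its own chromosome and well short of the genome. In number 2 it was nearly fully covered, which leaves little room for a higher value with AC220. The number of peaks in the region was higher with AC220 in both numbers, at 25 in AC220 1 against 20 in DMSO 1 and 7 in AC220 2 against 3 in DMSO 2. This difference of 4.5 peaks was within the spread, at 16 ± 12.7 peaks with AC220 and 11.5 ± 12 with DMSO (SD, n = 2 each, exact permutation test, two-sided, p = 0.667). In the full lists the number of peaks was 0.394% lower with AC220 in number 1 and 18.8% higher in number 2.

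In number 1 the cluster was covered more with AC220, while the HOXB9 to HOXB13 interval and the lower flank were covered less. With 2 libraries for each treatment, this does not show that the segments differ. In the cluster from the HOXB1 start to the HOXB9 start, 96 kb, the covered share was 81.4% in AC220 1 and 78.1% in DMSO 1. In number 2 it was 96.7% in AC220 2 and 97.4% in DMSO 2. The means were 89.0% ± 10.8 with AC220 and 87.7% ± 13.6 with DMSO (SD, n = 2 each, exact permutation test, two-sided, p = 1). AC220 was higher in number 1 by 3.32 points and lower in number 2, at -0.72 points. The direction in number 1 turned when peaks of a -log10 q under 2 were left out, with 69.1% covered in AC220 1 and 72.4% in DMSO 1. It turned back at a limit of 3, with 48.5% in AC220 1 and 45.8% in DMSO 1. At a limit of 4 AC220 1 was lower again, with 33.5% against 45.8% in DMSO 1. AC220 1 was also lower at limits of 1.5 and 2.5 and higher at 3.5, so the direction depended on the limit. Number 2 kept its values at all these limits. Without AC220 2 the difference was -6.33 points, without DMSO 1 -8.35 points, without AC220 1 8.93 points and without DMSO 2 10.95 points.

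The 102 kb between HOXB9 and HOXB13, which in the gene order of GRCh38.p14 hold MIR196A1, MIR3185, long noncoding RNA genes and the protein-coding genes PRAC1 and PRAC2, were covered less with AC220 in both numbers. The share was 75.2% in AC220 1 and 85.6% in DMSO 1, with 96.6% in AC220 2 and 98.3% in DMSO 2. The means of 85.9% ± 15.1 with AC220 and 92.0% ± 9.02 with DMSO differed by -6.08 points, less than the SD of either treatment (SD, n = 2 each, exact permutation test, two-sided, p = 0.667). Without AC220 1 the difference was 4.62 points, without DMSO 2 0.30 points, without AC220 2 -16.8 points and without DMSO 1 -12.5 points.

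Below HOXB1 the 28 kb of lower flank were 73.2% covered in AC220 1 and 82.9% in DMSO 1, with 90.3% in AC220 2 and 100% in DMSO 2. The difference was -9.76 points in number 1 and -9.69 points in number 2. The means were 81.7% ± 12.1 with AC220 and 91.5% ± 12.1 with DMSO (SD, n = 2 each, exact permutation test, two-sided, p = 0.667). Leaving out AC220 1 made the difference -1.17 points, leaving out DMSO 2 made it -1.20 points, and it was -18.3 points without AC220 2 or without DMSO 1. With peaks of a -log10 q of at least 2 the difference in means was -3.71 points, and at 5, where the libraries numbered 1 have no peak, it turned to 33.1 points. Above HOXB13 the 24 kb of upper flank were 100% covered in all 4 libraries.

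The cluster and the HOXB9 to HOXB13 interval were then set against each other within each library, a comparison added after the values had been seen. The cluster was covered more than the interval by 6.23 points in AC220 1 and 0.103 points in AC220 2. It was covered less than the interval by a difference of -7.49 points in DMSO 1 and -0.94 points in DMSO 2. The means were 3.17 ± 4.33 points with AC220 and -4.22 ± 4.63 points with DMSO (SD, n = 2 each, exact permutation test, two-sided, p = 0.333). The groups did not overlap, and this p is the smallest the test can give. Since the 2 segments were picked with these values known, the lack of overlap carries no conclusion. In number 2 the gap between the treatments was about 1 point, so nearly all of the mean difference of 7.38 points came from number 1. Leaving out 1 library in turn gave differences from 4.11 points, without DMSO 1, to 10.7 points, without DMSO 2.

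**Figure D3:**
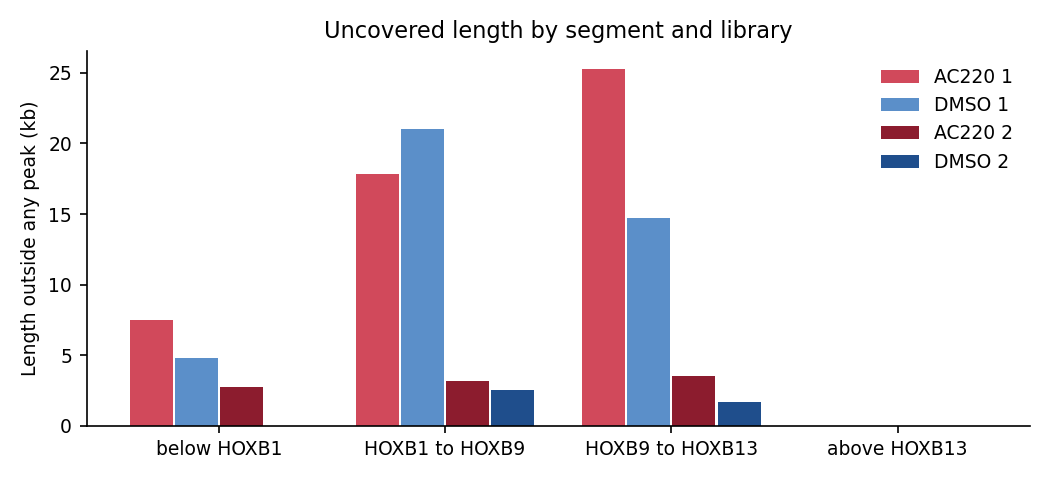
Length in kb outside any peak in 4 segments of the region, with 1 bar for each library. Between HOXB9 and HOXB13 it was 25.3 kb in AC220 1 against 14.7 kb in DMSO 1, while from HOXB1 to HOXB9 it was 17.8 kb against 21.0 kb, and above HOXB13 no library had any.

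Between neighbouring gene starts, the uncovered bases of the cluster lay between HOXB1 and HOXB6. From the HOXB6 start to the HOXB9 start no library had any. The interval from HOXB4 to HOXB5 was 60.6% covered in AC220 1 and 49.4% in DMSO 1, with 93.9% in AC220 2 and 100% in DMSO 2. MIR10A stands in this interval in the gene order of GRCh38.p14, and none of the gaps is assigned to it. DMSO 1 had its longest gap of the region in this interval, 7.58 kb (chr17:46661075-46668657). AC220 1 had gaps of 3.36 kb and 2.5 kb in the same place, split by a weak peak of 0.313 kb, and AC220 2 had 1 of 0.913 kb. From HOXB2 to HOXB3 the covered share was 73.1% in AC220 1 and 63.1% in DMSO 1, with 92.4% in AC220 2 and 91.7% in DMSO 2. From HOXB1 to HOXB2 it was 85.1% in AC220 1 and 83.0% in DMSO 1, with 100% in AC220 2 and DMSO 2. From HOXB3 to HOXB4 it was 75.6% in AC220 1 and 100% in the other libraries, and from HOXB5 to HOXB6 it was 92.7% in AC220 1 and 100% in the other libraries.

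A short stretch between HOXB2 and HOXB3 was free of peaks in every library. It spans chr17:46627816-46630087, 2.27 kb, with its middle 6.95 kb above the HOXB2 start. A second stretch without any peak, chr17:46763853-46765179, 1.33 kb, has its middle 41.5 kb below the HOXB13 start. Together these 3.6 kb, or 1.44% of the region, were the bases in no peak. These were also the places of the only 2 gaps of DMSO 2, which separate its 3 peaks.

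The few gaps of the libraries numbered 2 fell mostly where those numbered 1 had gaps as well. Each of the 6 gaps of AC220 2 overlapped a gap of AC220 1 and a gap of DMSO 1, and 91.2% of their length was also uncovered in AC220 1 and 95.6% in DMSO 1, where 20.3% and 16.2% of the whole region were uncovered. Both gaps of DMSO 2 were uncovered over their whole length in AC220 1 and DMSO 1. Of the 24 gaps of AC220 1, 15 overlapped a gap of DMSO 1, and of the 19 gaps of DMSO 1, 16 overlapped a gap of AC220 1. Most gaps of the libraries numbered 1 lay in peaks of number 2. Of those of AC220 1, 6 overlapped a gap of AC220 2 and 2 a gap of DMSO 2, and of those of DMSO 1, 7 overlapped a gap of AC220 2 and 2 a gap of DMSO 2. The 4 gaps that AC220 2 had and DMSO 2 lacked stood in the lower flank (2.71 kb), between HOXB4 and HOXB5 (0.913 kb) and between HOXB9 and HOXB13 (0.961 kb and 0.955 kb).

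When peaks separated by at most 3 kb were joined, the region formed 6 domains in AC220 1, 4 in DMSO 1 and 1 each in AC220 2 and DMSO 2. In AC220 2 a single domain of 321 kb (chr17:46523463-46844583), the 6th widest of 67692, held all 10 starts. In DMSO 2 the domain was 525 kb wide (chr17:46375080-46899925), the 3rd widest of 66287. This difference in width was lost when peaks up to 5 kb apart were joined, at 525.5 kb in AC220 2 and 524.8 kb in DMSO 2. In both libraries numbered 1, HOXB1 and HOXB2 shared a domain, HOXB3 and HOXB4 the next, HOXB5 to HOXB9 another, and HOXB13 stood apart from these. The widest of these was the head-end domain, 104 kb in AC220 1 and 105 kb in DMSO 1, which reaches below the region. The domain of HOXB5 to HOXB9 was 61.3 kb wide in AC220 1 and 93.2 kb in DMSO 1, and in DMSO 1 it reached to 46761810, inside the HOXB9 to HOXB13 interval. The domain of HOXB13 was 76.7 kb wide in AC220 1 and 102.7 kb in DMSO 1. The number of domains depended on the joining distance.

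No 1 kb step of the region separated the treatments. A step was called when the lowest library of one treatment exceeded the highest of the other by at least 25 percentage points of covered share. Of 250 steps, 0 were lower with AC220, against 0.542% of all steps of the genome, and 0 were higher, against 0.167%. Among steps at least 50% covered in any library, of which the region holds 247, the genome had 2.41% lower and 0.705% higher. A step fully covered in AC220 2 cannot be called lower, and this held for 233 of the 250 steps. One fully covered in DMSO 2 cannot be called higher, and this held for 243. The rule could thus hardly call a step here, and its result carries no conclusion about the treatment. Without AC220 2 the rule called 32 steps lower and without DMSO 1 it called 8. Without DMSO 2 it called 17 steps higher and without AC220 1 it called 1.

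Within number 1, 32 steps (12.8%) were at least 25 points lower in AC220 1 than in DMSO 1, against 4.65% of all steps and 20.7% of covered steps of the genome. In the same pair 17 steps (6.8%) were higher, against 2.87% of all steps and 12.7% of covered steps. Within number 2, 8 steps (3.2%) were lower in AC220 2 than in DMSO 2, against 7.24% of all steps and 28.5% of covered steps. In that pair 1 step (0.4%) was higher, against 3.16% and 11.2%. Read against covered steps, the region had a smaller share of differing steps than the genome in both numbers. Against all steps its share was larger in number 1 and smaller in number 2. A step counts as covered through any 1 library, so that background takes in steps covered in 1 library alone. Bases of DMSO 2 alone made up 21.3% of the covered genome and 2.01% of the covered region. The smaller share therefore carries no conclusion about the treatment. With no replicate inside a number, these counts carry no test.

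Of the 32 steps lower in AC220 1, 18 were in the 102 kb between HOXB9 and HOXB13. Another 9 were in the 96 kb of the cluster and 5 in the 28 kb of the lower flank. For their length, the interval and the lower flank held about the same share of lower steps, and the cluster held a smaller one. Of the 17 higher steps, 11 were in the cluster, 4 between HOXB9 and HOXB13 and 2 in the lower flank. The longest lower run was 4 steps, chr17:46765001-46769000, 18.6% covered in AC220 1 and 85.85% in DMSO 1, with 89.4% in AC220 2 and 95.5% in DMSO 2. A run of 3 steps, chr17:46750001-46753000, was 19% covered in AC220 1 and 80.7% in DMSO 1. A second run of 3, chr17:46595001-46598000, 11.5 kb below HOXB1, was 28.7% covered in AC220 1 and 100% in DMSO 1. Both runs were 100% covered in AC220 2 and DMSO 2. The other 6 lower runs of at least 2 steps were 2 steps long, of which 1 touched HOXB4 (chr17:46654001-46656000, 51.25% in AC220 1 and 100% in DMSO 1) and 1 lay beside HOXB5 (chr17:46668001-46670000, 21.6% in AC220 1 and 67.15% in DMSO 1).

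The longest higher run in AC220 1 was on the other side of HOXB4, at chr17:46661001-46664000, 79.8% covered in AC220 1 and 2.47% in DMSO 1. The peak over the HOXB4 start reached 46663395 in AC220 1 and 46661074 in DMSO 1. Runs of 2 higher steps lay between HOXB2 and HOXB3 (chr17:46633001-46635000, 84.1% in AC220 1 and 22.45% in DMSO 1) and below HOXB13 (chr17:46769001-46771000, 82.35% in AC220 1 and 49% in DMSO 1). In all 3 places AC220 2 and DMSO 2 were both 100% covered.

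In number 2 the lower steps formed 4 runs. The longest, chr17:46587001-46590000 in the lower flank, was 17% covered in AC220 2 and 100% in DMSO 2. In number 1 it was 33.6% covered in AC220 1 and 13.7% in DMSO 1, so there the direction was the opposite. At chr17:46740001-46742000 the share was 51.95% in AC220 2 and 100% in DMSO 2, and neither AC220 1 nor DMSO 1 had a peak. At chr17:46748001-46750000 it was 52.25% in AC220 2 and 100% in DMSO 2, with 17.15% in AC220 1 and 28.95% in DMSO 1. The single step between HOXB4 and HOXB5, chr17:46665001-46666000, was 19.6% covered in AC220 2 and 100% in DMSO 2 and not at all in AC220 1 or DMSO 1. Over the 250 steps, the AC220 minus DMSO differences of the numbers had a correlation of -0.03, a description over neighbouring steps of the same libraries.

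**Figure D4:**
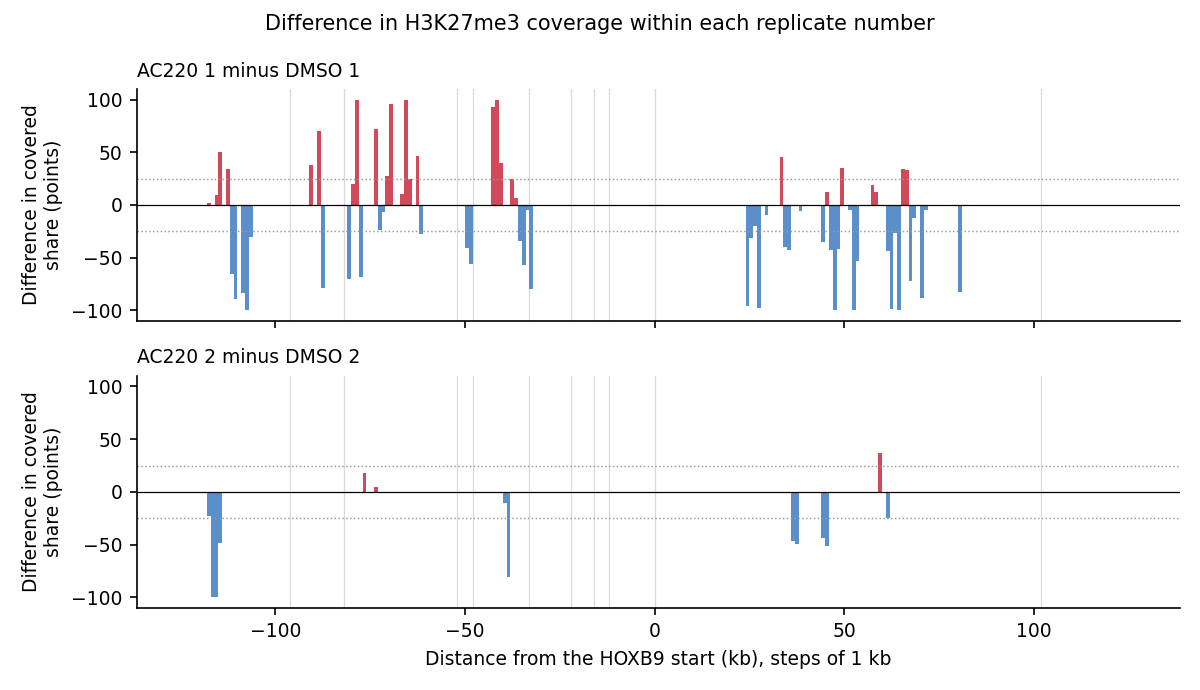
AC220 minus DMSO covered share in percentage points for each 1 kb step, within number 1 (top) and number 2 (bottom), against distance from the HOXB9 start in kb. Grey lines mark gene starts and dotted lines 25 points. Differences in number 1 lie on both sides of 0 below HOXB5 and mostly under 0 beyond HOXB9, there are 8 lower steps and 1 higher step past the lines in number 2, and the blocks of HOXB6 to HOXB9 and HOXB13 show none.

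Up to a -log10 q of 4, leaving out weaker peaks took away a smaller part of the region's coverage than of the genome's in every library. With peaks of a -log10 q of at least 2, the region was 68.2% covered in AC220 1 and 74.2% in DMSO 1, with 96.2% in AC220 2 and 98.3% in DMSO 2, unchanged in number 2. The genome was then 1.92% covered in AC220 1 and 2.61% in DMSO 1, with 10.5% in AC220 2 and 13.9% in DMSO 2. At a -log10 q of at least 4, 22.5% of the region was left in AC220 1, 51.6% in DMSO 1, 85.0% in AC220 2 and 98.3% in DMSO 2. What remained in AC220 1 was its peak over HOXB6 to HOXB9, while DMSO 1 also kept those over HOXB2 and HOXB13. The HOXB13 peak of AC220 1, with a -log10 q of 3.86, fell just under that limit and that of DMSO 1, with 4.23, just over it. At 5 the region was bare in AC220 1 and DMSO 1, where 0.0653% and 0.0711% of the genome were still covered, with 85.0% of the region left in AC220 2 and 79.3% in DMSO 2. A q depends on the depth of its library, which is unknown, so these values do not show a difference in the mark.

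**Figure D5:**
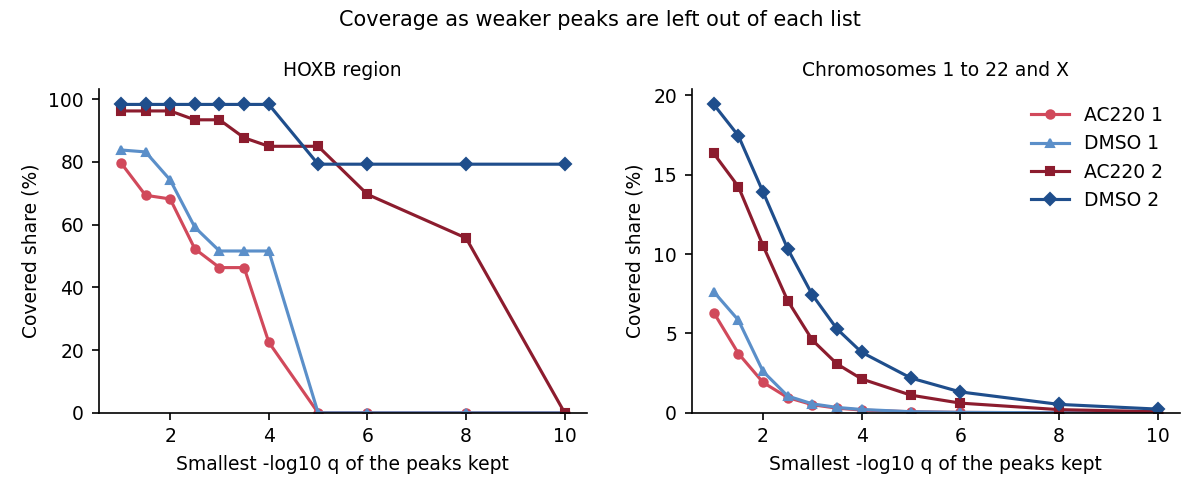
Covered share in percent of the HOXB region (left) and of chromosomes 1 to 22 and X (right) against the smallest -log10 q of the peaks kept, with 1 line for each library. At 2 the region keeps 68.2% in AC220 1 and 74.2% in DMSO 1 against 1.92% and 2.61% of the genome, and at 5 neither library numbered 1 has a peak left in the region.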

How the data were processed

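H3K27me3 was mapped by chromatin immunoprecipitation and sequencing in 4 libraries, 1 broad peak list each. Per the submitters' processing notes the tools include BWA (0.7.10-r789) and MACS2 (2.1), whose settings are not given. Each deposited list gives peak positions in bp, a fold enrichment as a ratio over the library's own background, a p-value and a q-value as -log10, and a score that follows q. Each library has a list of its own from the authors. The sources used here do not say whether inputs or Drosophila reads entered. No read count is listed, so depth is unknown and no interval or floor is given. No genome build is named in the labels or lists; peak ends fit GRCh37, with the highest on chromosome 17 at 81193892 of 81195210 bases (lengths from circlize 0.4.16, R 4.3.3).

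Covered share is the percentage of bases inside any peak, taken per library in 1 kb steps, 4 kb windows centred on gene starts, intervals between starts and segments, in Python 3.11.15 (pandas 2.3.3, numpy 2.4.6, matplotlib 3.10.9). Treatments were compared by an exact permutation test over the 6 assignments of 4 libraries, and within each replicate number. The step rule was run on simulated lists, with planted differences present in every library and no coverage gap between the replicate numbers. That run checks the code and not how the rule performs on lists like these. Members, lists and the rule for naming (all 10 genes, runs of at least 2 called steps) were chosen with earlier results of these data known. Gene ends and other HOX genes were not used here, since the gene table is on GRCh38.p14. That table gave names and gene order only.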

Additional observations from a re-analysis of the deposited data

How the results depend on the processing

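The gap in coverage between libraries numbered 1 and 2 exceeded that between treatments, and depth is unknown, which limits every comparison. All p-values stayed at or above 0.333, so no alternative could move a result past a threshold. Leaving out 1 library in turn gave differences (AC220 minus DMSO, in points) from -11.3 to 5.18 for the region, from -8.35 to 10.95 for the cluster, from -16.8 to 4.62 for HOXB9 to HOXB13, and from -18.3 to -1.17 for the lower flank. It gave from 0 to 32 lower steps and from 0 to 17 higher steps. Each removal leaves the replicate numbers unbalanced between the treatments and makes the step rule easier to meet. The cause of these changes was not tested.

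With only peaks of a -log10 q of at least 5, no peak of the libraries numbered 1 was left in the region. The region then differed by 2.85 points, the cluster by 9.87 points, HOXB9 to HOXB13 by -11.4 points, the lower flank by 33.1 points and the cluster minus the HOXB9 to HOXB13 interval by 21.2 points, 0 steps were covered in all libraries, 0 start windows were at least 50% covered in all libraries (10 as reported), 0 steps were lower and 0 higher in number 1, and 25 were lower and 39 higher in number 2. At a -log10 q of at least 2 the cluster differed by -2.03 points and the lower flank by -3.71 points, and the cause was not tested. With all lists trimmed to the shortest, HOXB9 to HOXB13 differed by -9.14 points, 1 step was lower with AC220 by the separation rule and 14 were lower in number 2. With gaps of up to 1 kb joined, the region differed by -1.26 points, the cluster by 3.66 points and HOXB9 to HOXB13 by -3.87 points, and 3 steps were lower in number 2.

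Steps of 0.5 kb gave 371 covered in all libraries, 55 lower and 31 higher in number 1, and 13 lower and 2 higher in number 2. Steps of 5 kb gave 39, 7, 3, 1 and 0 in the same order. A separation of 50 points gave 20 lower and 8 higher steps in number 1, and 4 lower and 0 higher in number 2, and one of 10 points gave 2 higher in number 2. Joining across 1 kb gave 18 domains in AC220 1, 20 in DMSO 1, 4 in AC220 2 and 3 in DMSO 2, and joining across 5 kb gave 2 in AC220 1 and 2 in DMSO 1.

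The replicate numbers are shared labels only. With the numbers as a replicate block (exact sign-flip test, smallest p 0.5), the differences keep their values and p was 0.5 for the region, HOXB9 to HOXB13 and the lower flank, and 1 for the cluster. Deviations of libraries with the same number had a correlation of 0.46 over 250 steps, and those of libraries with different numbers one of -0.46. These values mirror each other and hold the same information, so they do not test whether the numbers are pairs.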
